A study of Rattus norvegicus with 20 samples.

Results

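Rat gonads taken at embryonic day 13 (E13) were kept in organ culture for 3 days with flutamide at 0.5 µM or with its solvent, ethanol, and their transcripts were measured on oligonucleotide arrays. These 4 arrays, 2 per group, were chosen by their titles from 20 arrays in the series. The other 16 arrays held testes of E13, E14 and E16 embryos after vinclozolin or DMSO in utero (12 arrays) and E13 testes cultured with vinclozolin at 50 µM or DMSO (4 arrays). All embryos were Sprague-Dawley and were typed as male by a PCR for Sry on tail DNA. Each gonad was cultured with its mesonephros attached, on a filter over serum-free CMRL 1066 medium that was renewed daily together with the compound. One gonad of a pair received flutamide in ethanol and the gonad of the opposite side ethanol alone, and the testis was parted from the mesonephros before its RNA was taken. The labels call the arrays biological replicates without saying whether they came from separate embryos or pools, so the p-values speak only of the spread among the arrays, which may be technical. Values are array intensities, scaled so that all sets of arrays shared 1 trimmed mean. Differences are flutamide minus ethanol in log2(intensity + 16), and 1 probe set stood for each of 11677 genes.

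Androgens act through the androgen receptor, a ligand-activated transcription factor that binds DNA at short inverted repeats and recruits coactivators. Flutamide is a pharmaceutical antiandrogen whose hydroxylated metabolite competes with androgens for that receptor. In the fetal testis, Sertoli cells first form cords and secrete anti-Müllerian hormone, and Leydig cells then begin to make testosterone and insulin-like peptide 3. The comparison asks which transcripts of the early testis differ when the receptor is blocked during cord formation.

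The labelled tissue was checked first. The scaled intensity of Cyp17a1, the enzyme that turns progestins into androgens, was 1142.9 and 1074.0 on the ethanol arrays. It read 10.0 and 15.1 in E13 vehicle testes and 2656.9 and 6521.6 at E16, arrays that the authors scaled as a separate set. Hsd3b1, another steroidogenic enzyme, read 6383.7 and 6063.8 with ethanol, and Amh, the Sertoli cell hormone, 2370.5 and 2448.3. The cultured explants of both groups thus carried steroidogenic and Sertoli cell transcripts. Sox9 has no probe set with a single gene symbol here and was not analysed here.

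Xist and Foxl2 were high for male testes on all 4 arrays, while genes of the Y chromosome were mixed. Xist, the RNA that coats an inactive X chromosome, read 330.1 and 398.4 with ethanol and 415.9 and 381.6 with flutamide, against 4.9 to 108.7 in the vinclozolin culture, while the in utero arrays ranged from 2.4 to 896.0. The other 3 Xist probe sets read 220.4 to 283.0, 78.5 to 99.1 and 37.9 to 69.3 on the 4 arrays, against at most 125.8, 58.1 and 42.4 in the vinclozolin culture. Eif2s3y, a gene of the Y chromosome, read 1311.7 to 1501.1, against 3000.8 to 3208.1 in the vinclozolin culture, and the in utero arrays spanned 902.6 to 3495.6. Uty, also on the Y chromosome, was not lower in this way, with 409.6 to 520.7 on the brighter of its 2 probe sets against 427.2 to 554.8, and 20.0 to 58.1 against 7.9 to 35.3 on the other. Foxl2, a transcription factor of ovarian supporting cells, read 128.6 and 132.1 with ethanol and 138.8 and 151.7 with flutamide, above every other array of the series (at most 117.3). These values were similar in the ethanol and flutamide groups, and as all 4 arrays shared them, no comparison could be made without them. Their part in the results was not tested.

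Liver transcripts, singled out after their values were seen, were also present and were unequal between the groups. Albumin (Alb) read 2015.5 and 1932.3 with ethanol and 2175.9 and 3652.8 with flutamide, against 2.4 to 17.3 in the vinclozolin culture, with in utero values from 21.5 up to 1596.2. Alpha-fetoprotein (Afp) read 482.4 and 486.9 with ethanol and 515.8 and 809.6 with flutamide. Of 15 liver genes measured, 11 were higher on both flutamide arrays than on both ethanol arrays (73.3%, beside 17.1% of all genes) and 0 were lower (beside 20.5%). Their summed intensity was 3587.2 and 3471.6 with ethanol and 3927.2 and 6328.4 with flutamide. The median difference was 0.51, and 0.16 without flutamide replicate 2. Their part in the other results was not tested. In such bulk samples, more cells of a type and more RNA per cell cannot be told apart.

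**Figure D1:**
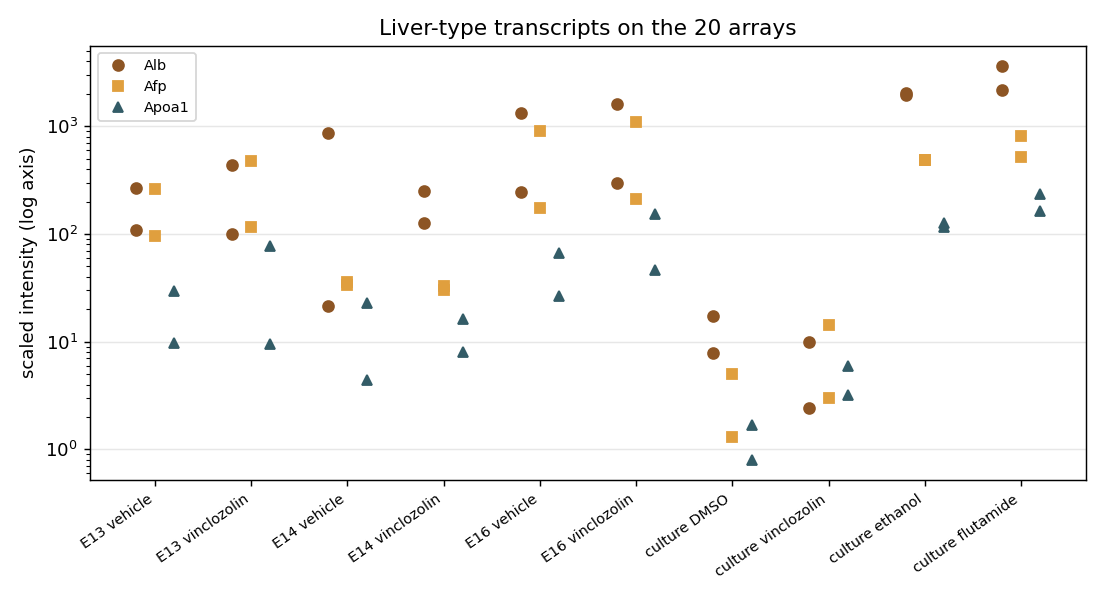
Scaled intensity (log axis) of albumin, alpha-fetoprotein and apolipoprotein A1 on each of the 20 arrays, 2 points per gene and group. The flutamide culture arrays lie at 1932.3 or above for Alb and the vinclozolin culture arrays at 17.3 or below, and the highest value of each gene is on a flutamide array except for Afp, whose highest is in utero.

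The arrays of the experiment shared a deposited trimmed mean of 107.03 and were multiplied by 1.96. Probe sets at both ends of the beta-actin (Actb) transcript gauge how intact the RNA was, and their 3′ over 5′ ratio was 11.1 and 11.0 with ethanol and 9.08 and 9.75 with flutamide, against at most 3.90 on the other arrays. Scaled medians were 79.9 and 78.9 with ethanol and 88.5 and 85.4 with flutamide. The correlation across probe sets was 0.977 between the ethanol arrays, 0.969 between the flutamide arrays and 0.971 to 0.972 between arrays of different groups. The flutamide arrays were thus no more alike to each other than a flutamide and an ethanol array.

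No transcript passed the threshold for a difference between flutamide and ethanol. Of 22526 probe sets tested with limma, 0 (0.0%) had a Benjamini-Hochberg adjusted p under 0.05, and 891 had an unadjusted p under 0.05. The smallest adjusted p was 0.11. A fit of the 4 arrays alone also called 0, with 1811 at an unadjusted p under 0.05 and a smallest adjusted p of 0.067. Without ethanol replicate 2 the count was 5, without ethanol replicate 1 or flutamide replicate 2 it was 1, and without flutamide replicate 1 it was 0. Leaving out an array leaves 1 in its group, whose spread is then taken from other groups, so these counts carry little weight. The median standard error of a difference was 0.25 in the fit of all 20 arrays and 0.18 in that of the 4 arrays. With 2 arrays against 2, an exact two-sided permutation test of a single gene cannot go below 0.333. The genes below are therefore described by their values, by whether the groups overlapped, and by unadjusted limma p-values, which carry no correction for the number tested.

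Of 11677 genes, 1997 (17.1%) were higher on both flutamide arrays than on both ethanol arrays and 2392 (20.5%) were lower. With an unadjusted p under 0.05 as well, 342 genes (2.93%) remained, and with a difference of at least 1.5-fold, 144 genes (1.23%) higher and 76 (0.651%) lower. With quantile normalization this split turned to 109 higher and 159 lower. Nearly all of these 220 genes were dim. When genes were split into quartiles of mean signal, 126 of the 144 and 66 of the 76 lay in the dimmest, up to an intensity of 101.5, and 0 in the brightest, from 540.6. For 84 of the 144 and 58 of the 76, both arrays of the lower group lay under the 40th percentile of their array, where the size of a difference is poorly measured.

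Genes known to respond to androgens in some tissue were read next, and they need not be direct targets of the receptor here. Of 26 genes listed, 18 were measured, and 0 passed the threshold. Tmprss2, a membrane serine protease induced by androgens in prostate, was the one member with an unadjusted p under 0.05 and no overlap, and it differed upwards. It read 9.2 and 20.6 with ethanol and 100.7 and 64.2 with flutamide, a difference of 1.67 (95% interval 0.80 to 2.54, limma adjusted p = 0.54). Both flutamide values exceeded those of the other 16 arrays, which were 4.1 to 55.8. Both ethanol values lay under the 40th percentile, at 52.0 to 52.2 of intensity on those arrays. That percentile was 60.3 and 56.9 on the flutamide arrays and 31.6 to 42.1 on the other 16. An equal intensity thus ranked lower on the 4 arrays of the experiment than on the others.

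The other androgen-responsive genes differed little. Fkbp5, a chaperone of steroid receptors and a classical androgen and glucocorticoid target, read 761.3 and 800.0 with ethanol and 739.4 and 896.0 with flutamide, so the groups overlapped. Tsc22d3, a leucine zipper protein induced by steroids, read 602.9 and 589.8 against 584.7 and 682.0, again with overlap. Rhox5, a homeobox gene under androgen control in adult Sertoli cells, read 158.4 and 122.1 against 145.6 and 232.8. Sgk1, a serum- and steroid-regulated kinase, was lower on both flutamide arrays (904.2 and 941.7 against 782.3 and 830.0), a difference of -0.19. In all, 1 of the 18 was higher without overlap and 6 were lower, or 33.3% against 20.5% of all genes. Of the 9 in the brightest quartile, 3 (33.3%) were lower, beside 36.1% of all genes of that quartile. With quantile normalization 1 of the 18 was higher and 4 were lower. The median difference of the 18 was 0.024, beside -0.013 for all genes, and it was -0.09 without flutamide replicate 2.

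Among the chaperones and coregulators of the receptor, Ncoa3 stood out. This steroid receptor coactivator of the p160 family read 28.7 and 13.7 with ethanol and 97.9 and 62.4 with flutamide, a difference of 1.38 (95% interval 0.73 to 2.02, limma adjusted p = 0.54). The other 16 arrays read 28.0 to 144.6, so both flutamide values and ethanol replicate 1 lay within their range and ethanol replicate 2 below it. Its second probe set differed by 0.45. The related coactivator Ncoa1 read 861.0 and 829.8 against 964.7 and 815.3, and the corepressor Ncor1 638.7 and 672.0 against 655.4 and 641.2, both with overlap. Hsp90ab1, the chaperone that holds the unliganded receptor, read 7592.3 and 7852.8 against 7576.5 and 8328.6. Of 17 such genes measured of 24 listed, 0 passed the threshold, 2 (11.8%) were higher without overlap and 3 (17.6%) lower, beside 17.1% and 20.5% of all genes, and the median difference was 0.003.

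Promoters of the largest differences were read for the androgen response half-site, AGAACA, or its reverse complement TGTTCT, in the 250 bases before the start site (RefSeq sequences, GRCr8 build). Of the 30 genes with the largest differences, 12 of the 15 higher and 11 of the 15 lower had a promoter in the table. The half-site was present in 1 of the 12 and in 1 of the 11. It was present in 9 of 111 promoters (8.11%) of the 144 higher genes, in 6 of 61 (9.84%) of the 76 lower genes and in 1039 of 9681 (10.7%) of all genes measured. Tmprss2 is shown as the androgen-responsive gene with the largest difference, and B3gat1 and Btnl8 as the carriers of a half-site, which is in capitals. The Tmprss2 window is chr11:50443115-50443364 on the minus strand, that of B3gat1 chr8:33363055-33363304 on the plus strand, and that of Btnl8 chr20:4269178-4269427 on the plus strand.
Tmprss2: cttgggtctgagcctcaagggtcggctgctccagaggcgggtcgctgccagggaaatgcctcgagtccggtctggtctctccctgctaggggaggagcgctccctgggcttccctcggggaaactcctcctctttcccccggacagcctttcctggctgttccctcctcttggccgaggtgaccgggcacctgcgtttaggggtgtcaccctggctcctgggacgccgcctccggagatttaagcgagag
B3gat1: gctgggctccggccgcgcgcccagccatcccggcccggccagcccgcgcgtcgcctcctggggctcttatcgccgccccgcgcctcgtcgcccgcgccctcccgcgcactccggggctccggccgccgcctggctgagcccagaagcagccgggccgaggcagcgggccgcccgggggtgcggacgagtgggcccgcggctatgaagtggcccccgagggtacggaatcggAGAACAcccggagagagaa
Btnl8: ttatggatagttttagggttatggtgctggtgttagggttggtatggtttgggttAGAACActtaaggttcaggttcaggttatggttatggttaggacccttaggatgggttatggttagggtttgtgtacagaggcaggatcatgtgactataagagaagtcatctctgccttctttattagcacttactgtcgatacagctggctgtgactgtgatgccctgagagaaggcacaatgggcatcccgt
The Tmprss2 window holds neither spelling of the half-site, which says nothing of other windows. B3gat1, a glucuronyltransferase that makes the HNK-1 carbohydrate, read 52.0 and 6.1 with ethanol and 123.7 and 71.6 with flutamide. Btnl8, a butyrophilin-like membrane protein, read 60.1 and 54.0 against 45.9 and 4.1. The 2 carriers of the half-site differed in opposite directions.

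Steroidogenic transcripts were close in both groups. Star, which carries cholesterol into mitochondria, read 786.8 and 747.2 with ethanol and 802.2 and 856.5 with flutamide. Cyp11a1, which cleaves the cholesterol side chain, read 1354.5 and 1351.1 against 1436.7 and 1556.2. Cyp17a1 read 1142.9 and 1074.0 against 1322.5 and 1279.3. These 3 genes were higher on both flutamide arrays, by 0.11, 0.14 and 0.23. The 95% intervals from the 4 arrays alone were -0.09 to 0.31 for Star, -0.03 to 0.32 for Cyp11a1 and 0.05 to 0.41 for Cyp17a1. The adjusted p of Cyp17a1 was 0.55 in that fit and 1.00 in the fit of all 20 arrays (limma), where the interval was -0.60 to 1.06.

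The enzymes Hsd3b1 and Hsd17b3 and the hormone Insl3 overlapped between groups. Hsd3b1 read 6383.7 and 6063.8 with ethanol and 6139.0 and 6550.7 with flutamide, with a 95% interval of -0.13 to 0.19 from the 4 arrays. Hsd17b3, the testicular enzyme that makes testosterone, read 136.4 and 130.3 against 130.7 and 136.0, with an interval of -0.39 to 0.39. Insl3, the Leydig cell peptide that guides testis descent, read 245.5 and 259.7 against 232.8 and 321.3, with an interval of -0.25 to 0.46. The groups overlapped for all 3 genes.

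Other Leydig cell genes went both ways. Scarb1, the receptor for high-density lipoprotein, read 315.6 and 335.2 with ethanol and 345.2 and 462.4 with flutamide. Cyp11b1, an adrenal hydroxylase, read 87.7 and 87.5 against 117.2 and 140.1, a difference of 0.48. Por, the electron donor of microsomal cytochromes P450, was lower on both flutamide arrays (348.0 and 383.3 against 254.0 and 335.4). Nr5a1, the master transcription factor of steroidogenic cells, was lower as well (652.4 and 700.3 against 554.7 and 614.3), by -0.21. Of 20 genes measured of 23 listed, 6 were higher and 5 (25.0%) lower without overlap, beside 17.1% and 20.5% of all genes, 0 with an unadjusted p under 0.05, and the median difference was 0.022. The median changed sign with the array left out, from -0.04 without flutamide replicate 2 to 0.10 without flutamide replicate 1.

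**Figure D2:**
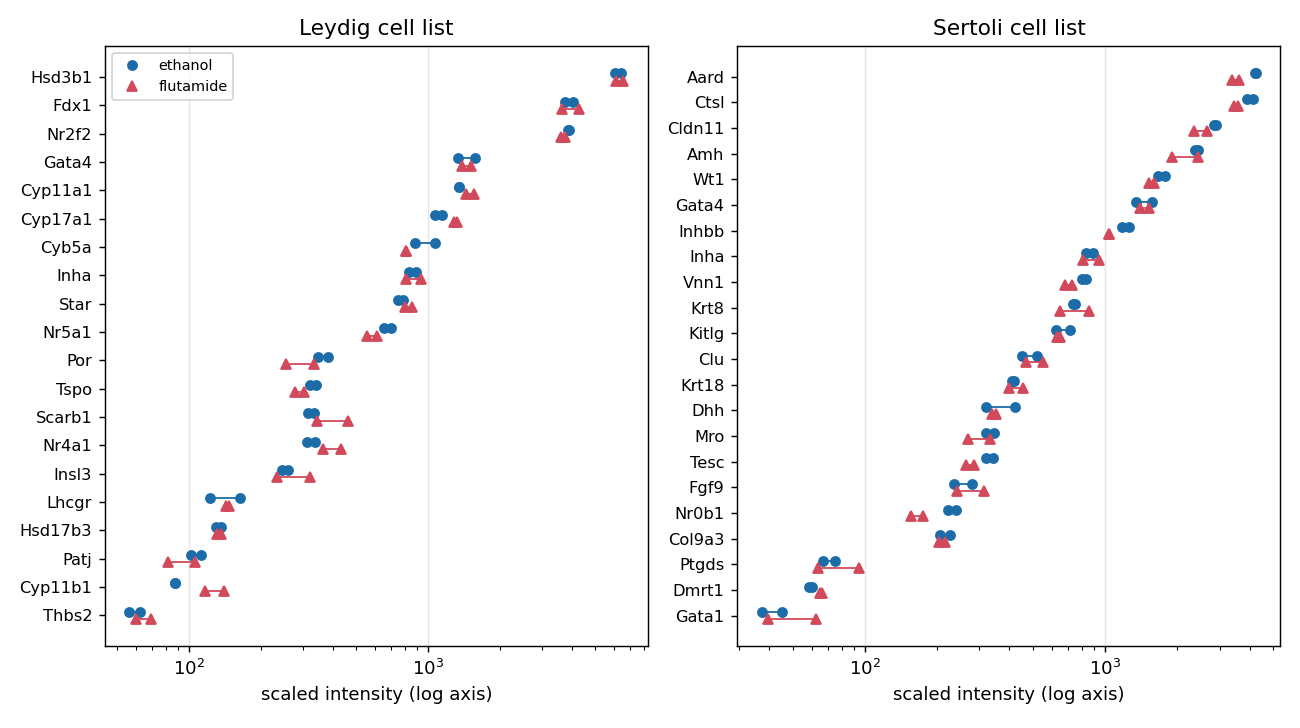
Scaled intensity (log axis) of the Leydig cell list (left) and the Sertoli cell list (right) on the 2 ethanol arrays (circles) and the 2 flutamide arrays (triangles), joined within a group. Of 22 Sertoli cell genes, 8 have both flutamide arrays to the left of both ethanol arrays and 1 has them to the right, while Leydig cell genes lie to both sides.

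Sertoli cell transcripts were lower on the flutamide arrays more often than higher, by small amounts. Of 22 genes measured of 30 listed, 8 (36.4%) were lower without overlap and 1 higher, beside 20.5% and 17.1% of all genes, and 0 had an unadjusted p under 0.05. Nr0b1, the nuclear receptor DAX1, read 222.0 and 239.6 with ethanol and 156.2 and 174.5 with flutamide, a difference of -0.45 (95% interval -0.91 to 0.02). Aard read 4217.4 and 4247.1 against 3620.6 and 3372.3, a difference of -0.28. Cldn11, a tight junction protein of the cords, read 2898.3 and 2841.4 against 2660.3 and 2342.7. Inhbb, the beta B subunit of inhibin and activin, read 1181.3 and 1255.9 against 1043.4 and 1038.1.

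Other genes of the Sertoli cell list were mixed. Amh read 2370.5 and 2448.3 with ethanol and 1903.5 and 2435.9 with flutamide, so flutamide replicate 2 fell between the ethanol arrays. Dhh, the hedgehog ligand that Leydig cells depend on, read 420.4 and 318.0 against 352.1 and 338.2, also with overlap. Wt1, a zinc finger factor needed for cord maintenance, read 1657.5 and 1773.7 against 1595.5 and 1524.4, without overlap. The median difference of the list was -0.07 and stayed below 0 without any 1 array (-0.10 to -0.06) and with quantile normalization (-0.07). Its summed intensity was 23757 and 23857 with ethanol and 21314 and 21516 with flutamide. Bright genes in general were lower on the flutamide arrays, as described below, and 11 of the 22 were in the brightest quartile. Of those 11, 6 were lower without overlap (54.5%), beside 36.1% of all genes of that quartile.

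Germ cell transcripts were near background. Of 25 genes listed, 10 were measured and 7 of these lay in the dimmest quartile. Kit, the receptor for stem cell factor, read 6.1 and 5.5 with ethanol and 17.3 and 34.2 with flutamide, below the 40th percentile on all 4 arrays. Among genes of ovarian supporting cells, Axin2, a feedback inhibitor of Wnt signalling, read 98.7 and 68.9 against 124.4 and 134.8, a difference of 0.56 (95% interval 0.10 to 1.02, limma adjusted p = 1.00). Irx5, a homeobox gene of the same list, read 32.6 and 21.0 against 48.5 and 70.9. Foxl2 was higher on both flutamide arrays by 0.14, with an interval from -1.12 to 1.40. Kit, Axin2 and Irx5 had unadjusted p-values under 0.05, and no other member of these lists did so without overlap.

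The largest differences between the groups were in genes without a shared role. By a rule set for the analysis, the 15 largest in each direction were taken among genes without overlap, with an unadjusted p under 0.05 and with both arrays of the higher group at or above the 40th percentile of the array. The largest upward difference was in Zfp523, a zinc finger transcription factor, with 32.2 and 7.7 with ethanol and 107.9 and 144.3 with flutamide. That is a difference of 2.06 (95% interval 1.33 to 2.79, limma adjusted p = 0.13), while its second probe set differed by 0.09. The ethanol values were below those of the other 16 arrays (36.0 to 153.4), and the flutamide values were within them. Hbe2, an embryonic globin, read 8.6 and 64.8 against 201.0 and 107.6, a difference of 1.88. Its 2 ethanol arrays were further apart than the ethanol and flutamide arrays nearest to each other.

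The other genes of the upward set were of mixed function. Dip2c, an acyl-CoA synthetase-like protein, read 93.6 and 65.9 with flutamide and differed by 1.45. Pck1, the enzyme that commits carbon to gluconeogenesis, read 20.0 and 99.9 against 147.0 and 143.3, so ethanol replicate 2 lay close to the flutamide arrays. Without that replicate, which leaves 1 ethanol array, the difference was 2.16. S100a1, a calcium-binding protein, behaved alike, with 15.7 and 74.6 against 88.1 and 113.6, and differed by 1.87 without ethanol replicate 2. Hsf2bp, a factor of meiotic recombination, read 40.6 and 9.4 against 67.7 and 78.5. Neurod2, a neuronal transcription factor, read 32.6 and 28.7 against 103.4 and 69.1. Tmprss2, Ncoa3 and B3gat1, described above, belong to the set, and Kif12, MGC116197, N4bp3, Dnaaf8 and Igsf21 completed it, with differences of 1.22 to 1.29.

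Among the 15 largest downward differences, Tcea2 had the smallest p of all probe sets. This testis-type transcription elongation factor read 65.0 and 95.4 with ethanol and 11.0 and 18.6 with flutamide, a difference of -1.63 (95% interval -2.18 to -1.09, limma adjusted p = 0.11). Both flutamide values were below those of the other 16 arrays (45.1 to 84.0). It passed the threshold with a pseudocount of 1 (adjusted p = 0.016) and without the filter on dim probe sets (adjusted p = 0.046). Palmd, a paralemmin-like protein, read 78.3 and 97.2 against 26.7 and 11.6, also below the other arrays (40.2 to 135.3), but its other probe sets differed by 0.47 and 0.64 in the opposite direction.

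In other genes of the downward set it was the ethanol arrays that stood apart. P2ry6, a receptor for uridine diphosphate, read 108.9 and 107.2 with ethanol and 60.1 and 30.4 with flutamide, and the other 16 arrays read 29.6 to 65.9. Nos2, the inducible nitric oxide synthase, read 82.8 and 87.1 against 10.6 and 45.9, with 6.1 to 76.3 elsewhere. Icam5, a neuronal adhesion molecule, read 74.2 and 53.4 against 16.1 and 15.3, and Gabrd, a GABA receptor subunit, differed by -1.10. Tradd, an adaptor of the tumour necrosis factor receptor, read 101.9 and 115.0 against 34.2 and 60.5, where the flutamide arrays were the low ones (63.3 to 166.8 elsewhere). In this set both ethanol arrays were outside the range of the other 16 arrays for 8 genes, both flutamide arrays for 5 and neither for 2. In the upward set the counts were 1, 8 and 6. The remaining genes of the downward set were Ism2, Loricrin, Phldb3, Cklf, Kcna2, Ggt7, Btnl8 and Neurl2. All 30 genes were in the dimmest quartile, and for 24 of them both arrays of the lower group were under the 40th percentile.

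**Figure D3:**
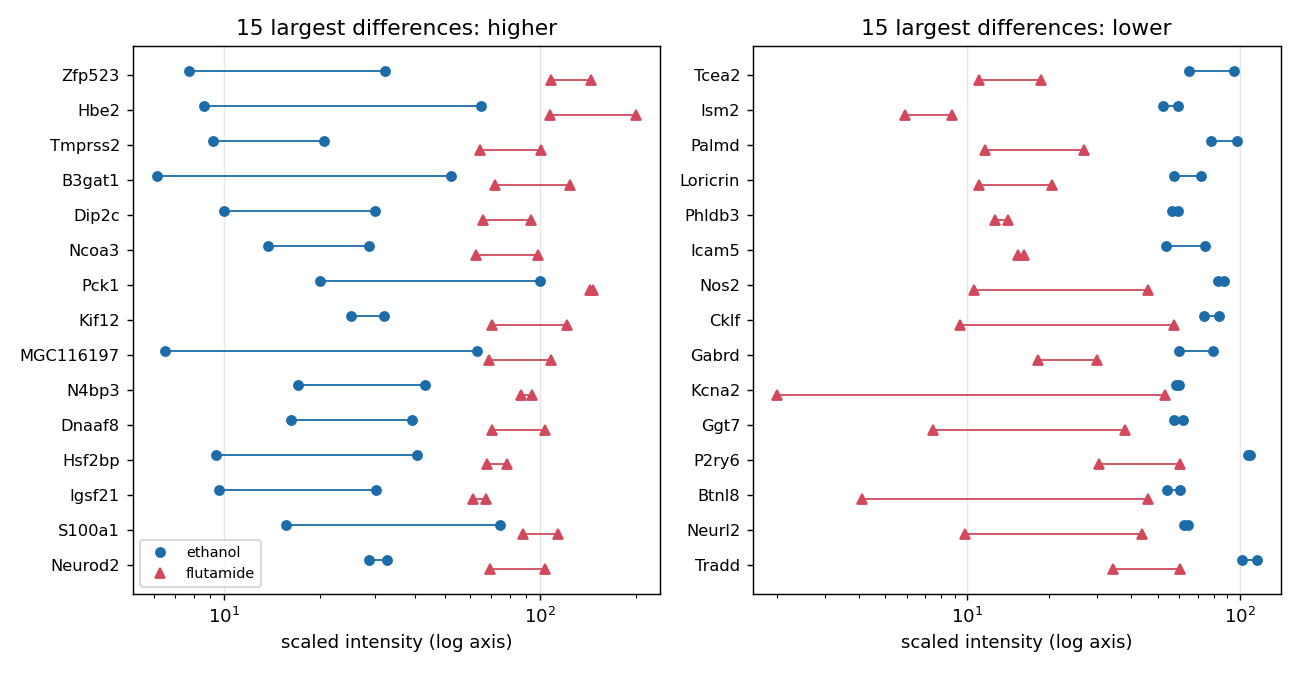
Scaled intensity (log axis) of the 15 genes with the largest upward (left) and downward (right) differences on the 2 ethanol arrays (circles) and the 2 flutamide arrays (triangles), joined within a group. The groups do not overlap because genes were chosen for that, no value exceeds 201.0, and the 2 arrays of a group are often far apart, as for Hbe2 with ethanol (8.6 and 64.8) and Btnl8 with flutamide (45.9 and 4.1).

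In the brightest quartile of the genes, where intensities are best measured, differences were small. There 94.96% of 2919 genes differed by no more than 0.25, and 0 of those without overlap reached 1.5-fold. The genes with the largest differences were picked after their values were seen. Cpa1, a pancreatic carboxypeptidase, had the largest upward difference (0.57), with 610.4 and 481.1 with ethanol and 621.0 and 1057.1 with flutamide. Without flutamide replicate 2 the difference of Cpa1 was 0.19, and the difference of Alb was 0.14 in place of 0.51. Mmp14, a membrane-bound matrix protease, read 1055.5 and 1072.8 with ethanol and 1555.9 and 1595.9 with flutamide, a difference of 0.56 with an adjusted p of 1.00 in the fit of all arrays and 0.13 in that of the 4 (limma). Its second probe set differed by -0.08. Gosr1, a Golgi SNARE protein, read 1575.7 and 1576.0 against 2313.1 and 2313.1, and its other probe sets differed by 0.12 and -0.26. Ccar1, a coactivator of nuclear receptors and p53, read 936.4 and 988.6 against 1425.1 and 1303.2, with -0.19 and 0.63 on other probe sets. Hdgfl2, a chromatin reader, read 480.9 and 548.6 against 664.0 and 789.4, with an unadjusted limma p of 0.0063 and an adjusted p of 0.86.

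Bright genes that were lower included 2 imprinted genes. Mest, an imprinted gene of mesoderm, read 3690.9 and 3548.8 with ethanol and 2772.0 and 2783.3 with flutamide, a difference of -0.38 (95% interval -0.68 to -0.08, limma adjusted p = 1.00). Meg3, an imprinted non-coding RNA, read 1832.4 and 1970.6 against 967.8 and 1718.6, and its second probe set differed by 0.14. Of 16 imprinted genes measured of 21 listed, 4 (25.0%) were lower and 3 (18.8%) higher without overlap, near the 20.5% and 17.1% of all genes, and 30.8% of the 13 in the brightest quartile were lower. The median was -0.03. Gsta1, a glutathione transferase abundant in steroidogenic cells, read 1789.6 and 1840.0 against 1465.8 and 1222.2. Ciao2a, a factor of iron-sulphur cluster assembly, read 1508.9 and 1368.0 against 1081.9 and 1006.3. Riok1, Rasd2 and Fam111a were the other genes of this group, with differences of -0.45.

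The direction of a difference depended on signal. In the brightest quartile 36.1% of genes were lower without overlap and 8.77% higher, and in the dimmest 11.4% were lower and 23.0% higher. The median difference was -0.06 in the brightest quartile and 0.07 in the dimmest. With quantile normalization the medians became -0.02 and -0.05, and the shares in the brightest quartile 23.1% lower and 15.1% higher. Flutamide and ethanol arrays also differed in beta-actin ratio and median signal, as given above, and the part of these in the pattern was not tested. For lists held largely by bright genes, shares within the brightest quartile are given as well.

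**Figure D4:**
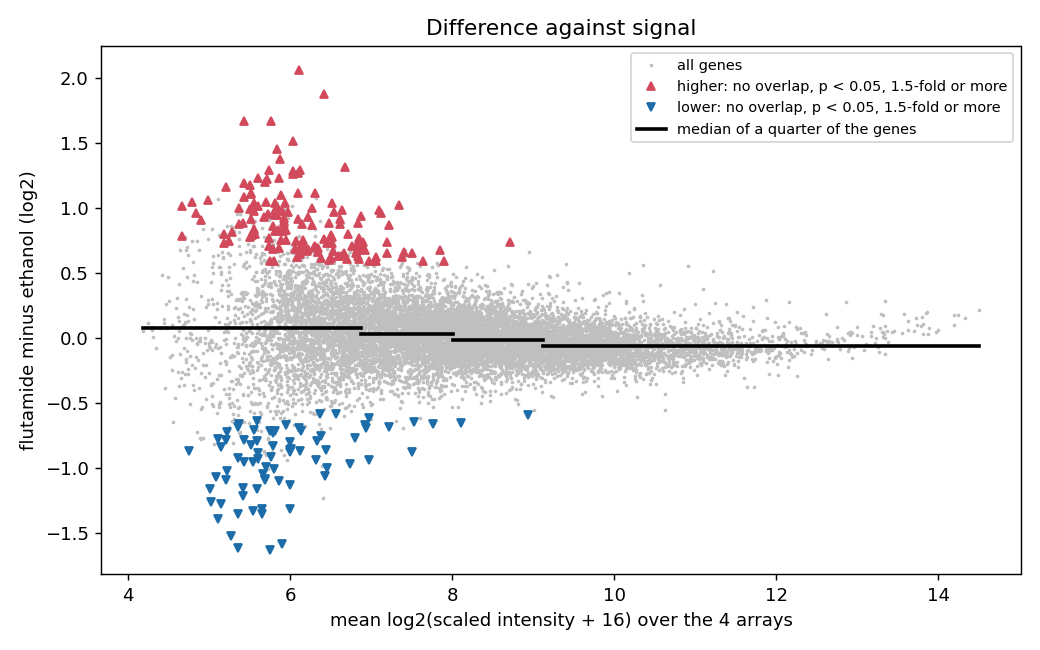
Difference between flutamide and ethanol (log2) against the mean log2(scaled intensity + 16) of the 4 arrays for 11677 genes (grey). Triangles mark the 144 higher and 76 lower genes without overlap, with an unadjusted p under 0.05 and at least 1.5-fold, nearly all at low signal, and black lines the median of each quartile, which falls from 0.07 to -0.06.

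Genes of the respiratory chain and ATP synthase were lower about as often as other bright genes. Of 44 measured of 50 listed, 18 (40.9%) were lower without overlap and 2 higher, beside 20.5% and 17.1% of all genes. In the brightest quartile, which held 41 of them, 43.9% were lower, beside 36.1% of all its genes. Ndufb9, a subunit of complex I, read 4015.9 and 3695.6 with ethanol and 2933.1 and 2996.7 with flutamide, a difference of -0.38 (95% interval -0.71 to -0.04, limma adjusted p = 1.00). Sdhd, the anchor of complex II, read 1351.3 and 1412.4 against 1214.7 and 1050.8, though its second probe set differed by 0.24. The median of -0.09 rested on flutamide replicate 1, since it was 0.02 without that array. Of 19 genes of fatty acid synthesis and oxidation, 9 (47.4%) were lower and 2 higher, and of the 13 in the brightest quartile 61.5% were lower. Among them was the carnitine transferase Cpt1a (917.6 and 903.6 against 819.4 and 744.3).

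Extracellular matrix genes were higher more often than lower. Of 46 measured of 47 listed, 18 (39.1%) were higher without overlap and 5 lower, beside 17.1% and 20.5% of all genes, 0 with an unadjusted p under 0.05. In the brightest quartile, 12 of 27 (44.4%) were higher, beside 8.77% of all its genes. Col1a1, the alpha 1 chain of type I collagen, read 4178.4 and 4098.5 with ethanol and 4808.7 and 5246.9 with flutamide. Col1a2, its partner chain, read 3324.4 and 3447.9 against 3848.3 and 4460.9. Col3a1 read 9913.6 and 10158.3 against 10657.4 and 10772.3, and Dcn, the small proteoglycan decorin, 1033.4 and 1103.0 against 1309.9 and 1152.5. Second probe sets of Col1a1 and Col1a2 differed by 0.09 and 0.01. Timp1, an inhibitor of matrix proteases, was lower (1275.6 and 1347.2 against 1245.5 and 1195.7). The median of the list was 0.06, it was 0.03 to 0.07 without any 1 array and 0.08 with quantile normalization.

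Other groups held small or mixed differences. Of 34 cell cycle genes, 12 (35.3%) were lower and 4 higher, and 42.1% of the 19 in the brightest quartile were lower, near the 36.1% of all its genes. The replication helicase subunit Mcm7 read 2272.2 and 2243.0 with ethanol and 1857.1 and 2082.8 with flutamide, while Mki67 was higher (1644.7 and 1595.9 against 1778.8 and 1646.9). Of 29 ribosomal protein genes, 7 (24.1%) were higher and 0 lower, and 25.9% of the 27 in the brightest quartile were higher, beside 8.77% of all its genes, but 5 were higher and 7 lower with quantile normalization. Immediate early genes read high on all 4 arrays. Fos read 2530.7 and 2461.2 with ethanol and 1911.5 and 2319.3 with flutamide, against 67.1 to 81.3 in the vinclozolin culture. Egr1, another early transcription factor, read 4589.2 and 4563.3 against 3454.2 and 4057.3. Dusp1, a phosphatase of the same list, differed the other way (315.2 and 317.0 against 400.8 and 416.9). In this list 9 of 23 (39.1%) were lower and 4 (17.4%) higher, beside 20.5% and 17.1% of all genes.

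Genes of xenobiotic response went both ways. Abcc3, an efflux transporter induced through the receptors CAR and PXR, read 67.1 and 33.4 with ethanol and 121.9 and 109.9 with flutamide, a difference of 1.04 (95% interval 0.16 to 1.92, limma adjusted p = 1.00). Of 10 CAR and PXR targets measured of 22 listed, 5 (50.0%) were lower without overlap and 2 (20.0%) higher, beside 20.5% and 17.1% of all genes, and of the 5 in the brightest quartile 4 were lower. The median of -0.09 was the lowest of the 37 lists and stayed below 0 without any 1 array (-0.12 to -0.07). Among the lower members was Gsta1, with the values given above. Of 5 targets of the aryl hydrocarbon receptor, 1 was lower and 0 higher. Lfng, a modifier of Notch receptors, read 26.9 and 5.3 against 49.1 and 55.7, under the 40th percentile on all 4 arrays. Over 37 lists, 0 members of 658 passed the adjusted threshold, and the medians of 35 lists lay within 0.1 of 0. The exceptions were germ cell genes (0.28) and adrenal, sympathetic and neural genes (0.10). Both depended on flutamide replicate 2, without which they were 0.09 and -0.006, and the germ cell median was 0.46 without flutamide replicate 1. The liver genes, a list added after the values were seen, are not among the 37.

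**Figure D5:**
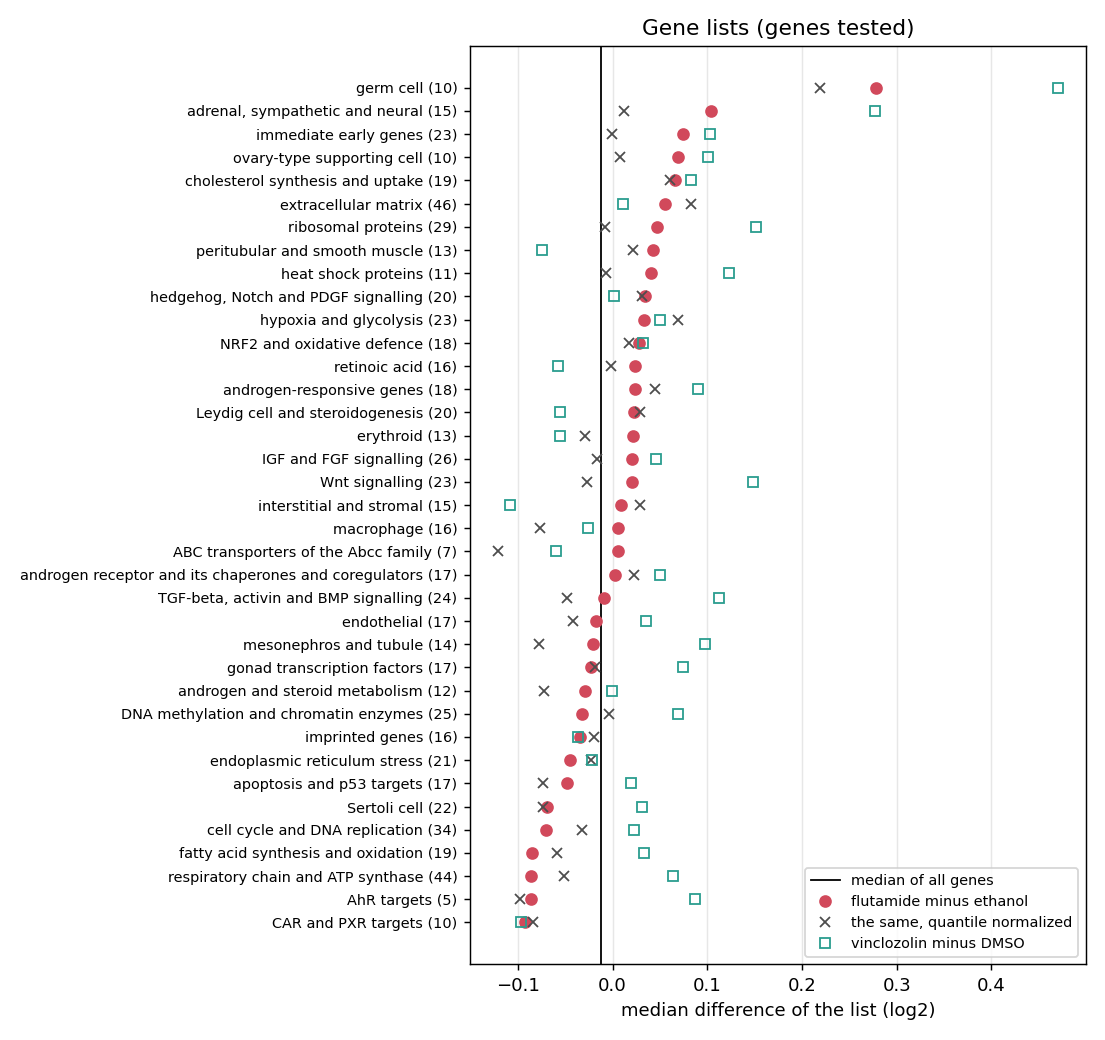
Median difference (log2) of 37 gene lists, without the liver genes, with the number of genes measured, for flutamide minus ethanol (filled circles), the same after quantile normalization (crosses) and vinclozolin minus DMSO (squares). The line marks the median of all genes for flutamide (-0.013), and all lists but germ cell genes (0.28) and adrenal, sympathetic and neural genes (0.10) lie within 0.1 of 0 for flutamide.

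Vinclozolin, a fungicide with antiandrogenic metabolites, was tested in the same kind of culture at 50 µM in DMSO, so dose, solvent and array set all differed from flutamide at 0.5 µM. The 2 compounds' values are therefore given side by side. Cyp17a1 differed by 0.23 with flutamide and -0.02 with vinclozolin, Cyp11a1 by 0.14 and -0.11, and Star by 0.11 and -0.19. Tmprss2 differed by 1.67 and 0.56, Ncoa3 by 1.38 and 0.05, and Tcea2 by -1.63 and -0.09. The median vinclozolin difference was 0.02 for the 144 genes that were higher with flutamide, 0.06 for the 76 that were lower and 0.04 for all genes. Of the 144, 24 were higher and 18 lower without overlap on the vinclozolin arrays, and of the 76, 17 were higher and 7 lower, beside 18.2% and 10.2% of all genes on those arrays. A limma contrast of the 2 effects called 0 of 22526 probe sets (0.0%) at an adjusted p under 0.05, with 750 at an unadjusted p under 0.05.

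The genes that differed with flutamide were also read over testis development. The in utero arrays enter the flutamide comparison only through the scaling, the filter, the choice of probe set and the variance of the fit. In their vehicle testes the median change from E13 to E16 was 0.02 for the 144 higher genes and -0.008 for the 76 lower genes. For all genes it was -0.004. Of the 144, 14 rose and 7 fell from E13 to E16 at a limma adjusted p under 0.05, and of the 76, 2 rose and 2 fell, beside 6.19% and 4.44% of all genes. The steroidogenic genes changed far more over that time, by 7.20 for Cyp17a1 and 5.71 for Cyp11a1.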

How the data were processed

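RNA of 20 testis samples was hybridized to rat oligonucleotide arrays, of which the 4 of the flutamide culture are reported here. The authors deposited linear signal intensity, computed by MAS5 in GCOS per the submitters' processing notes (versions not given in the sources used here). Every array was rescaled so that its mean, taken without the lowest and highest 2% of probe sets, equalled that of the in utero arrays, and log2 was taken after adding 16. Of 31099 probe sets, 57 controls were left out, and 22526 reached the 40th percentile of their array on at least 2 of 20 arrays. Gene names were taken from the annotation of the array platform and updated through RefSeq. A single symbol was found for 16292 of the probe sets tested, several for 366 and none for 5868. The probe set of highest mean stood for its gene.

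A linear model with a mean for each group of 2 arrays was fitted to all 20 arrays (limma 3.58.1, R 4.3.3), with a variance trend and Benjamini-Hochberg adjustment. It had 10 residual and 6.83 prior degrees of freedom. On simulated data it called 50 of 100 changes of 2-fold and 98 of 100 of 4-fold at an adjusted p under 0.05. The same run made 6 false calls. The simulated noise was independent and of the fitted variance, without the shift with signal or the unequal liver transcripts of the real arrays. These rates need not hold for the real comparison. All tests were two-sided, and intervals are 95%. Named were the 15 largest differences in each direction (the rule is given with them), every gene past the threshold, 10 genes of testis function, and up to 3 members per list without overlap and with an unadjusted p under 0.05. Other list members are given as examples. The members and lists were chosen with earlier results of these data known. Alternatives were another normalization, no scaling, pseudocounts of 1 and 64, other filters, fewer arrays, a replicate block, no trend, leaving out each array and the probe set of largest variance. The liver list and the bright genes were chosen after the values were seen.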

Additional observations from a re-analysis of the deposited data

Results flagged for a closer look

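Some genes named in the report differed in opposite directions in the 2 culture experiments, without overlap between groups in either. The value given is the flutamide difference minus the vinclozolin difference, in log2, from the limma contrast of the 2, whose adjusted p was 0.96 or more for each of them. Dose, solvent and array set differed between the experiments. Dip2c differed by 2.08 and N4bp3 by 1.62, both higher with flutamide and lower with vinclozolin. The other genes were lower with flutamide and higher with vinclozolin. Among dim genes these were Gabrd (-1.53) and P2ry6 (-1.56). Among genes bright in the flutamide culture they were Fos (-0.36), Ciao2a (-0.68), Rasd2 (-0.91) and Fam111a (-1.28). Fam111a read 1348.1 and 1071.5 with DMSO and 1850.6 and 2518.1 with vinclozolin. Fos was dim in the vinclozolin culture and barely apart, with 67.8 and 67.1 with DMSO and 68.3 and 81.3 with vinclozolin.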

How the results depend on the processing

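The count of 0 probe sets past the adjusted threshold for flutamide became 4 with a pseudocount of 1, 17 without the filter on dim probe sets and 1 without the variance trend, and was 0 to 5 when 1 array was left out (5 without ethanol replicate 2). It stayed 0 with quantile normalization, without scaling, with a pseudocount of 64, with stricter filters, with fewer arrays and with a replicate block. Gonads of 1 embryo went to opposite groups, but the labels do not say whether equal replicate numbers mark such gonads, and same-numbered samples did not deviate together (correlation -0.004). The block gave 242 genes without overlap, with an unadjusted p under 0.05 and at least 1.5-fold. That count of 220 genes (144 higher, 76 lower) was 116 (74 and 42) without scaling, 50 (33 and 17) with a pseudocount of 64, 523 (359 and 164) without the filter, 122 (84 and 38) with the filter at the median, 132 (89 and 43) with the filter on the 4 arrays, and 354 (243 and 111) with the probe set of largest variance. Quantile normalization gave 109 higher and 159 lower. Leaving out 1 array gave 247 to 319 in all, with 148 to 188 higher and 65 to 147 lower. It gave 3530 to 4364 genes without overlap higher and 3918 to 4782 lower, since 1 array overlaps less easily than 2. The difference between the compounds' effects stayed at 0 calls in every alternative run. Of 57 named or bright genes, the sign turned for Hsd17b3 with quantile normalization (-0.0799) and for Mmp14 with the probe set of largest variance (-0.0763). With 1 array left out it turned for Hsd3b1 (-0.0192 to 0.0742), Hsd17b3 (-0.0293 to 0.0295), Insl3 (-0.1101 to 0.3291) and Amh (-0.3374 to 0.0159). The 30 largest differences kept their sign in all 467 refitted values, but this was largely fixed in advance. These genes were chosen for groups without overlap, so leaving out an array or changing the pseudocount could not turn their sign. The number of arrays, low signal and the spread between arrays limit the precision.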
